A study of Mus musculus with 9 samples.

Results

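The genes examined were 10 genes of the cellular oxygen-sensing pathway, measured in erythroblasts from wild type mouse embryos and from embryos in which 1 or 2 adult beta-globin loci are deleted. They were Hif1a and Epas1, which encode the regulated subunits of the hypoxia-inducible factors, Egln1, Egln2 and Egln3, which encode the prolyl hydroxylases, Vhl, and the target genes Ero1a, P4ha1, Vegfa and Ndrg1. The genes were found by name, through exact gene symbols of the array's annotation. Each of the 10 had exactly 1 probe set, and they are 10 of 19938 genes that the array names by a probe set of their own.

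The hypoxia-inducible factors are heterodimers of an oxygen-regulated alpha subunit, HIF-1 alpha from Hif1a or HIF-2 alpha from Epas1, and a constant beta subunit from Arnt. When oxygen is available the EGLN enzymes hydroxylate prolines of the alpha subunit, the VHL protein binds the hydroxylated form, and an attached ubiquitin ligase sends it to the proteasome. Control is thus largely at the protein level, which these arrays do not measure. When oxygen falls the dimer is stable and activates genes of glycolysis, vessel growth, protein folding and collagen synthesis, and HIF-2 alpha drives erythropoietin production.

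The cells came from fetal livers of E14.5 embryos, from crosses between Th3/+ parents, and were flow-sorted as erythroblasts by 2 surface proteins, the transferrin receptor CD71 and the red cell marker Ter119, and by high forward scatter. Th3 is a deletion allele that removes the adult beta-globin genes. It models beta-thalassemia as a constitutive deletion in every cell, and the wild type, Th3/+ (heterozygous) and Th3/Th3 (homozygous) groups share the 129SV background backcrossed for 9 generations to C57BL/6. There were 3 biological replicates of each genotype, 1 array each. Whether livers were pooled is not stated in the labels, so the p-values measure the spread between these samples.

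Arrays of the same genotype had rank correlations of 0.968 to 0.987 over the 17742 probe sets that passed the filter on dim values. On the second principal component, with 16.7% of the variance, Th3/+ replicate 1 and Th3/Th3 replicate 1 stood apart from the other arrays (20.5 and 25.5, against -14.9 to 7.7). Within every genotype replicate 1 was highest on this component and replicate 3 lowest. Xist signal was high on 1 wild type, 1 Th3/+ and 2 Th3/Th3 arrays (8.85 to 9.63, against 3.74 to 4.14 on the others), so the sexes were not balanced over genotypes. Signals are log2 values as deposited. They rank arrays for a given gene but not genes against each other, since probes differ in brightness. A gene passed the filter when its signal was above the 40th percentile of the array (4.52 to 4.62) on at least 3 of the 9 arrays.

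In Th3/Th3 cells, Ero1a, P4ha1 and Egln2 were higher than in wild type, by 4.45-fold, 2.70-fold and 1.45-fold, and none of the 9 tested genes fell. Of the 10 genes 9 passed the filter and were tested, and Egln3 was too dim. Of the 9, 3 rose, 0 fell and 6 did not pass the test (limma, adjusted p under 0.05 over all probe sets). Over all 17742 probe sets, 12.3% passed in either direction and 7.31% were higher. The median change of the 9 tested genes was 0.37 on the log2 scale, against 0.00 over all probe sets. The genes were chosen with earlier results of these data known, so this median and the counts are a description and not a test. In 5 of the 9 (Ero1a, P4ha1, Egln2, Vhl and Vegfa) the 3 Th3/Th3 arrays all lay above the 3 wild type arrays, which held for 15.4% of all probe sets. With 3 arrays a side the smallest two-sided p of an exact permutation test is 0.1, and the calls therefore depend on the variance that limma shares across probe sets.

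**Figure D1:**
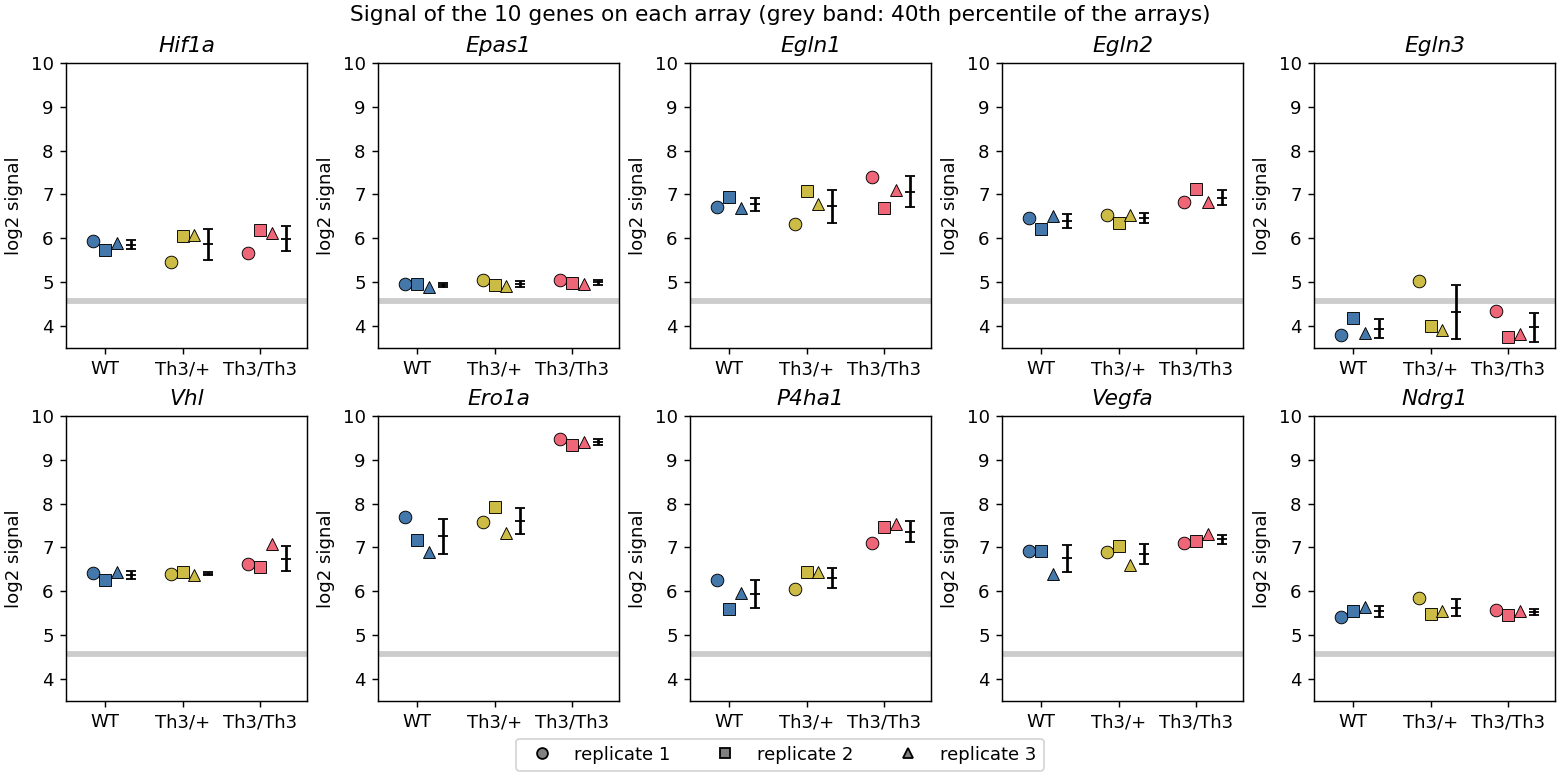
Log2 signal of each of the 10 genes on each of the 9 arrays, by genotype (circles, squares and triangles are replicates 1, 2 and 3), with the mean and SD (n = 3) in black and the 40th percentile of the arrays as a grey band. The Th3/Th3 arrays of Ero1a (9.33 to 9.48) and P4ha1 (7.09 to 7.53) sit above all others of these genes, and Egln3 lies in or below the band on all but 1 array.

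The alpha subunits came first. Hif1a gave 5.93, 5.74 and 5.90 on the wild type arrays, 5.46, 6.05 and 6.07 on the Th3/+ arrays and 5.66, 6.19 and 6.11 on the Th3/Th3 arrays. The 3 genotypes overlapped, and the low arrays in each mutant genotype were the replicates 1 that stood apart on the second principal component. The Th3/Th3 mean lay 0.14 above wild type (95% interval -0.29 to 0.56, adjusted p = 0.719), and between 0.03 and 0.30 with 1 array left out (the lowest without Th3/Th3 replicate 2, the highest without Th3/Th3 replicate 1). Its adjusted p (limma) lay between 0.0749 and 0.953 over the alternative settings, none of which called it. Epas1 read 4.95, 4.95 and 4.88 on the wild type arrays, 5.04, 4.93 and 4.91 on the Th3/+ arrays and 5.05, 4.98 and 4.95 on the Th3/Th3 arrays. These 9 values spanned less than 0.2 and sat just above the filter. The Th3/Th3 mean lay 0.06 above wild type (95% interval -0.09 to 0.21, adjusted p = 0.615). For these genes the intervals leave room for a rise of at most 0.56 and 0.21 on the log2 scale, on values that for Epas1 were close to the dim end. In the RefSeq table Hif1a overlaps the predicted gene Gm15283, and Egln1 overlaps Gm46060. Their part in the signal was not tested.

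Among the prolyl hydroxylases, Egln2, which encodes PHD1, was the member that passed the test. It read 6.47, 6.20 and 6.51 on the wild type arrays, 6.52, 6.34 and 6.53 on the Th3/+ arrays and 6.83, 7.13 and 6.82 on the Th3/Th3 arrays. The Th3/Th3 arrays lay above all 6 others. The rise over wild type was 0.53 (1.45-fold, SE 0.13, adjusted p = 0.0275). This call did not hold under all settings: without wild type replicate 1, wild type replicate 2 or Th3/Th3 replicate 2 the change was 0.57, 0.44 and 0.43 with adjusted p = 0.0585, 0.0984 and 0.0838, and with quantile normalization, the Xist level as a covariate or only the arrays of these genotypes it was 0.44, 0.52 and 0.53 with adjusted p = 0.0613, 0.0574 and 0.0643. Against Th3/+ the Th3/Th3 mean was higher by 0.46 (95% interval 0.17 to 0.76, adjusted p = 0.0666).

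Egln1, which encodes PHD2, the main oxygen sensor of the family, read 6.71, 6.95 and 6.68 on the wild type arrays, 6.32, 7.07 and 6.79 on the Th3/+ arrays and 7.40, 6.69 and 7.10 on the Th3/Th3 arrays. The groups overlapped, and arrays within the mutant genotypes differed more than the group means did. The Th3/Th3 mean lay 0.28 above wild type (95% interval -0.22 to 0.78, adjusted p = 0.489; 0.11 without Th3/Th3 replicate 1 and 0.47 without replicate 2), so a rise as large as that of Egln2 is inside its interval. The difference between the changes of Egln1 and Egln2 was not tested. Egln3 encodes PHD3, which is itself induced by hypoxia in many cells. It read 3.78, 4.18 and 3.84 on the wild type arrays, 5.03, 4.00 and 3.91 on the Th3/+ arrays and 4.34, 3.74 and 3.81 on the Th3/Th3 arrays. A single array, Th3/+ replicate 1, lay above the 40th percentile, and the signal is too dim for a fold change. With no filter Egln3 was tested too, and its Th3/Th3 change was 0.03 (SE 0.28, adjusted p = 0.974).

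Vhl, the substrate receptor of the ubiquitin ligase that recognises hydroxylated HIF alpha, read 6.42, 6.26 and 6.43 on the wild type arrays, 6.40, 6.43 and 6.36 on the Th3/+ arrays and 6.61, 6.55 and 7.07 on the Th3/Th3 arrays. The Th3/Th3 arrays lay above the 6 others, 1 of them well above the other two. The mean was 0.37 above wild type (95% interval 0.06 to 0.69, adjusted p = 0.128), and 0.21 above it without Th3/Th3 replicate 3, the highest array. Adjusted p lay between 0.0967 and 0.315 over the alternative settings.

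Ero1a had the largest change of the 10 genes. It encodes the endoplasmic reticulum oxidase that passes oxidising equivalents to protein disulfide isomerase, with oxygen as the acceptor, and it is a known target of HIF-1 and of the unfolded protein response factor CHOP. Its signal was 7.69, 7.17 and 6.90 on the wild type arrays, 7.58, 7.92 and 7.32 on the Th3/+ arrays and 9.48, 9.33 and 9.41 on the Th3/Th3 arrays. Wild type and Th3/+ arrays overlapped, and the Th3/Th3 arrays lay more than 1 log2 unit above both. The mean rose from 7.25 ± 0.40 to 9.41 ± 0.08 (SD, n = 3), a change of 2.15 (4.45-fold, SE 0.22, adjusted p = 0.000447). Against Th3/+ it was higher by 1.80 (3.47-fold, SE 0.22, adjusted p = 0.00206).

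P4ha1 encodes the catalytic alpha subunit of collagen prolyl 4-hydroxylase, an enzyme of the endoplasmic reticulum that, like the EGLN enzymes, uses oxygen, iron and 2-oxoglutarate. It read 6.25, 5.60 and 5.95 on the wild type arrays, 6.04, 6.43 and 6.43 on the Th3/+ arrays and 7.09, 7.46 and 7.53 on the Th3/Th3 arrays. Again the Th3/Th3 arrays did not overlap with the 6 others, while wild type and Th3/+ did overlap. The mean rose from 5.93 ± 0.33 to 7.36 ± 0.24 (SD, n = 3), by 1.43 (2.70-fold, SE 0.19, adjusted p = 0.00178). The difference from Th3/+ was 1.06 (2.09-fold, SE 0.19, adjusted p = 0.011). The Th3/Th3 calls of Ero1a and P4ha1, against wild type and against Th3/+, held under each of the 19 alternative settings run for each.

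Vegfa, the vascular endothelial growth factor A, read 6.92, 6.92 and 6.40 on the wild type arrays, 6.89, 7.04 and 6.59 on the Th3/+ arrays and 7.11, 7.15 and 7.30 on the Th3/Th3 arrays. The Th3/Th3 arrays lay above the 6 others, the lowest of them close to the highest Th3/+ array. The mean was 0.44 above wild type (95% interval 0.05 to 0.83, adjusted p = 0.140), and 0.27 above it without wild type replicate 3. Ndrg1, a cytoplasmic stress-response protein that hypoxia induces in many cell types, read 5.41, 5.55 and 5.65 on the wild type arrays, 5.85, 5.48 and 5.55 on the Th3/+ arrays and 5.58, 5.46 and 5.55 on the Th3/Th3 arrays. Its genotypes overlapped. The Th3/Th3 mean lay 0.01 below wild type (difference -0.01, 95% interval -0.26 to 0.24, adjusted p = 0.974), and the upper end of this interval lies below the lower ends for Ero1a (1.67) and P4ha1 (1.00). The difference between these genes' changes was not itself tested.

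**Figure D2:**
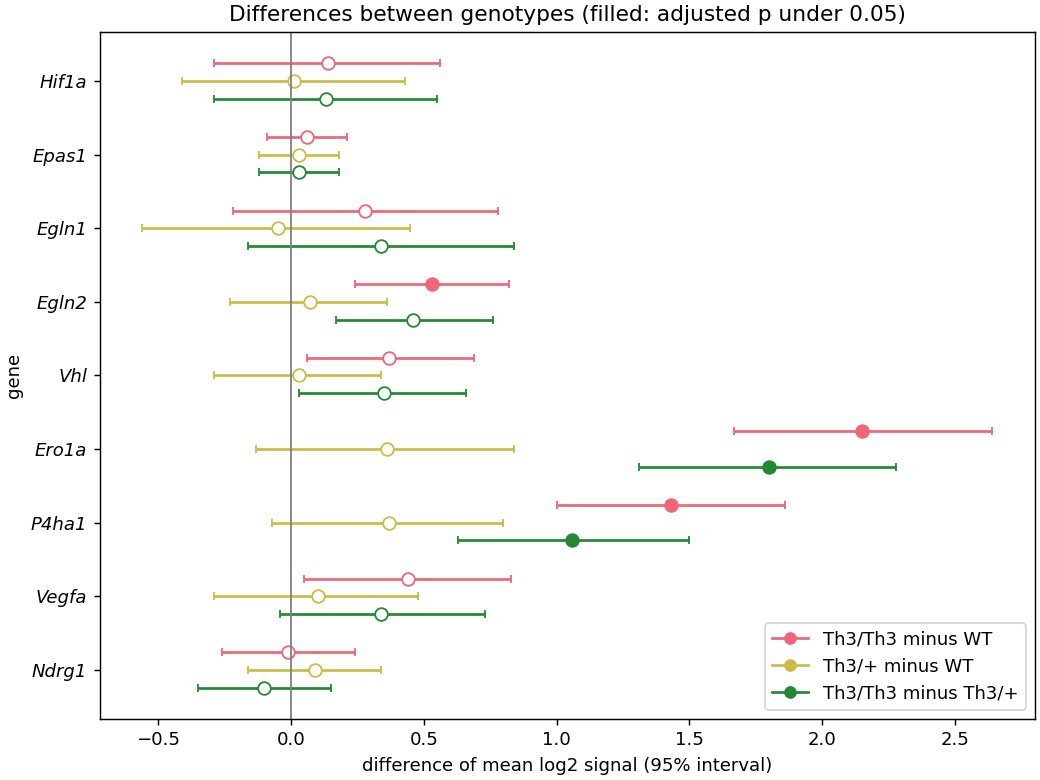
Difference of mean log2 signal with its 95% interval (limma, not adjusted for multiple tests) for the 9 tested genes in Th3/Th3 minus wild type (red), Th3/+ minus wild type (yellow) and Th3/Th3 minus Th3/+ (green), with filled points where adjusted p was under 0.05. Ero1a and P4ha1 lie far to the right in both Th3/Th3 comparisons (2.15 and 1.43, 1.80 and 1.06), while all Th3/+ minus wild type intervals include 0.

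The promoters of the 3 called genes are shown because these genes were each higher in Th3/Th3 cells and because the HIF dimer binds a core of the letters ACGTG or GCGTG. The sequences are the 250 bases before the transcription start in RefSeq (GRCm38.p6), in the direction of the gene, with each ACGTG or GCGTG in capitals, or CACGT or CACGC where the core lies on the opposite strand. The Ero1a window is chr14:45318573-45318822 on the minus strand, that of P4ha1 is chr10:59323046-59323295 on the plus strand, and that of Egln2 is chr7:27166803-27167052 on the minus strand, the more upstream of its RefSeq starts.
Ero1a: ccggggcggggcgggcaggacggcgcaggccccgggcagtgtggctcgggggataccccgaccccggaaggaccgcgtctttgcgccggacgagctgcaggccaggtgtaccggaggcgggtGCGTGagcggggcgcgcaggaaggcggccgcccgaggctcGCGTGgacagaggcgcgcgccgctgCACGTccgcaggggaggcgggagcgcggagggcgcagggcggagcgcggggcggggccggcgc
P4ha1: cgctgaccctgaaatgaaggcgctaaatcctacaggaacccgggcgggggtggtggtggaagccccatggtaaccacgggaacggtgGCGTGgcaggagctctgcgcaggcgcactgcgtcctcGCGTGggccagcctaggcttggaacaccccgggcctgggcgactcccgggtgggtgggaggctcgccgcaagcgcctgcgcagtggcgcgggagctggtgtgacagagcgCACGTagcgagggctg
Egln2: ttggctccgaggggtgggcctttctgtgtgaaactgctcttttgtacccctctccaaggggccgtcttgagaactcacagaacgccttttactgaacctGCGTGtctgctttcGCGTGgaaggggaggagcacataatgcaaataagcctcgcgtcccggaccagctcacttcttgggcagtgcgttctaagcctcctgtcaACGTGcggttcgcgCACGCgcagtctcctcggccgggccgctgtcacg
Ero1a held 3 matches, which begin 128, 88 and 63 bases before the start, P4ha1 held 3 (163, 126 and 16 bases) and Egln2 held 4 (151, 137, 48 and 34 bases). The other start of Egln2 had 1 match. Genes that did not pass the test had matches too, 2 in Egln1 and 3 in Hif1a, of which 2 overlap as the palindrome CACGTG, and Vhl had 0. Egln3 had 1, and the starts of Vegfa had 0 and 2. Of 32851 RefSeq windows of this length, 38.6% held at least 1 match and 6.6% held at least 3. Each core holds the letters CG, which occurred 41, 24 and 20 times in the Ero1a, P4ha1 and Egln2 windows shown. They occurred 51 times in the Egln1 window and 20 times in that of Vhl. The 32851 windows were not matched for CG, so these shares do not measure enrichment. A match is a description of the letters and does not show binding. Windows were found for 8 of the 10 genes.

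In Th3/+ cells none of the 9 tested genes passed the test against wild type (limma), where 0.0282% of all probe sets did. At an unadjusted p under 0.05 the count was 0 of the 9, against 645 of the 17742 probe sets. With shares this small, 0 of 9 says little about these genes. The largest differences were those of P4ha1 (0.37, 95% interval -0.07 to 0.80) and Ero1a (0.36, 95% interval -0.13 to 0.84), with adjusted p = 1 for each. With 1 array left out these differences ranged from 0.20 (without wild type replicate 2) to 0.53 for P4ha1 and from 0.18 (without wild type replicate 3) to 0.58 for Ero1a, the highest value in each case without wild type replicate 1. The other 7 genes differed by -0.05 (Egln1) to 0.10 (Vegfa). Th3/Th3 against Th3/+ called 2 of the 9 genes, Ero1a and P4ha1, each higher, while 7.27% of all probe sets passed in either direction and 4.01% were higher. The Th3/Th3 arrays of the same 5 genes, Ero1a, P4ha1, Egln2, Vhl and Vegfa, lay above the 3 Th3/+ arrays, which held for 12.9% of all probe sets. These comparisons share arrays, so their changes are given side by side and are not independent.

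The other genes of the pathway were taken by lists, with 1 probe set per gene (the brightest), and read against the 12.3% called and the median of 0.00 over all probe sets. The lists were chosen with earlier results of these data known, so their counts are a description and not a test. Of 20 other HIF subunits and regulators tested, 3 rose and 2 fell in Th3/Th3 cells against wild type, with a median change of 0.07. Hif3a, the third alpha subunit, some forms of which restrain the other two, fell by 1.08 (from 6.42 to 5.34, SE 0.15, adjusted p = 0.00198). Cited2, which competes with HIF-1 alpha for the coactivators CBP and p300, rose by 0.96 (from 8.38 to 9.34, SE 0.14, adjusted p = 0.0029). Hsp90aa1, the inducible HSP90 that binds HIF-1 alpha, rose by 0.87 on its brightest probe set and by 0.86 and 1.18 on the other two (adjusted p = 0.00041, 0.000361 and 0.000734). Probe sets of such genes can share signal with near-identical copies. The constant subunit gene Arnt lay 0.23 below wild type (difference -0.23, SE 0.14, adjusted p = 0.36), and Hif1an, which encodes the asparagine hydroxylase FIH, lay 0.10 below (difference -0.10, SE 0.19, adjusted p = 0.809). Arnt and Hif1an were named after their values were seen, as the partner and the other hydroxylase of the alpha subunits. The list's remaining called genes, also named afterwards, were Rbx1 and Ep300. Rbx1 rose by 0.49 on its brightest probe set (SE 0.09, adjusted p = 0.00822). Ep300, the gene of the coactivator p300, fell by 0.70 (SE 0.19, adjusted p = 0.0438).

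Of 29 other widely used HIF targets tested, 11 rose and 2 fell, with a median of 0.29. The glycolytic genes Tpi1 and Aldoa rose by 1.75 and 2.53 (adjusted p = 8.72e-05 and 0.000218). In the same cells the glucose transporter gene Slc2a1 fell by 2.13 (from 12.64 to 10.51, SE 0.20, adjusted p = 0.000342), with Th3/+ at 12.68. Genes classed as HIF targets thus passed the test in both directions. Against Th3/+ 9 of the 29 rose and 2 fell (median 0.35), where 7.27% of all probe sets passed. In Th3/+ against wild type 0 passed (median 0.12), where 0.0282% of all probe sets did. The Th3/+ means of Tpi1 and Aldoa (10.59 and 9.91) nevertheless lay 0.93 and 1.11 above wild type (limma, adjusted p = 0.0734 and 0.478). The list of HIF-linked genes of iron handling and erythropoietin held 2 higher and 2 lower genes of 6 tested, with a median of -0.10. Hmox1, heme oxygenase, rose by 1.75 (adjusted p = 0.00116) and Slc40a1, the iron exporter ferroportin, by 0.70 (adjusted p = 0.0133, and 0.0544 without wild type replicate 2), while Tfrc, the transferrin receptor CD71 that was also used to sort the cells, fell by 1.12 (adjusted p = 0.000192).

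**Figure D3:**
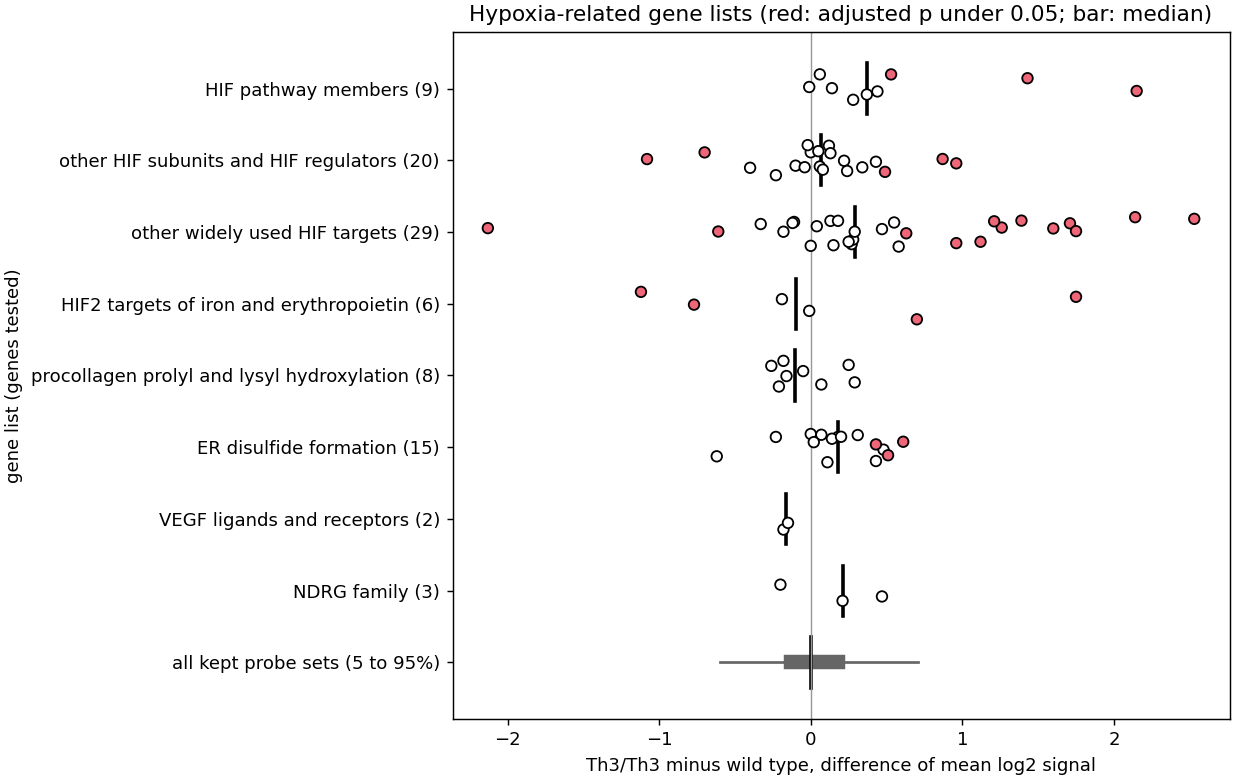
Difference of mean log2 signal, Th3/Th3 minus wild type, for each tested gene of the HIF-related lists (red where adjusted p was under 0.05, black bar for the list's median) and, at the bottom, the range from the 5th to the 95th percentile of all kept probe sets with the interquartile range as a thick bar. The list of other HIF targets reaches from -2.13 (Slc2a1) to 2.53 (Aldoa), and the procollagen, VEGF and NDRG lists have no red point.

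The relatives of the target genes were read next. Of 8 tested genes of procollagen prolyl and lysyl hydroxylation, the pathway of P4ha1, 0 passed the test. Over all probe sets 12.3% passed, and the median of these 8 genes was -0.11. The smallest p-values were those of the lysyl hydroxylase genes Plod1 (difference -0.18, adjusted p = 0.176) and Plod3 (difference -0.21, adjusted p = 0.236). The other alpha subunit genes P4ha2 and P4ha3 lay 0.25 and 0.29 above wild type (adjusted p = 0.243 and 0.296), and P4hb, the beta subunit that is also protein disulfide isomerase, lay 0.07 above (SE 0.13, adjusted p = 0.803). These P4h genes were named after their values were seen, as partners of P4ha1.

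Of 15 tested genes of disulfide formation in the endoplasmic reticulum, the pathway of Ero1a, 3 rose and 0 fell, with a median of 0.18. Over all probe sets 12.3% passed in either direction and 7.31% were higher. The 3 that rose were the luminal chaperone gene Erp29 (0.51, adjusted p = 0.0183) and the disulfide isomerase genes Pdia4 (0.43, adjusted p = 0.0235) and Pdia6 (0.61, adjusted p = 0.0371). The list's calls were not stable: 0 of its genes passed without wild type replicate 2 or without Th3/Th3 replicate 2, 1 passed without wild type replicate 3 or without Th3/Th3 replicate 3, and 5 passed (4 higher and 1 lower) with the replicate block. Of the other VEGF ligands and receptors only Vegfb and Vegfd passed the filter, at 0.18 and 0.15 below wild type (differences -0.18 and -0.15, adjusted p = 0.323 and 0.545). Of the NDRG family, Ndrg2, Ndrg3 and Ndrg4 were tested and 0 passed. Ndrg2 differed by 0.47 (adjusted p = 0.235), and by 0.15 without Th3/Th3 replicate 1. Ndrg4 differed by 0.21 (adjusted p = 0.29), and by 0.10 without wild type replicate 3.

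For each of the called genes, the genes with the nearest profile were found by the root mean square distance between log2 signals over the 9 arrays, each gene centred on its own mean. Nearest to Ero1a were Hmox1 (distance 0.21), Zfp36, an mRNA decay factor (0.23), and Prdx1, a peroxiredoxin (0.26), against a median distance of 0.98 over all candidate probe sets. Nearest to P4ha1 were Stip1, an HSP70 and HSP90 cochaperone (0.13), Ahsa2, related to an activator of HSP90 (0.13), and Pnpla2, a triglyceride lipase (0.17), with a median of 0.66. Nearest to Egln2 were Tsr3, of ribosomal RNA modification, Srprb, a signal recognition particle receptor subunit, and Gpalpp1, each at 0.06 with a median of 0.31. From wild type through Th3/+ to Th3/Th3, the means of Stip1 were 10.05, 10.61 and 11.52, and those of Hmox1 were 7.05, 7.34 and 8.80. The distances describe these 9 arrays, in which the genotype sets much of each profile.

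**Figure D4:**
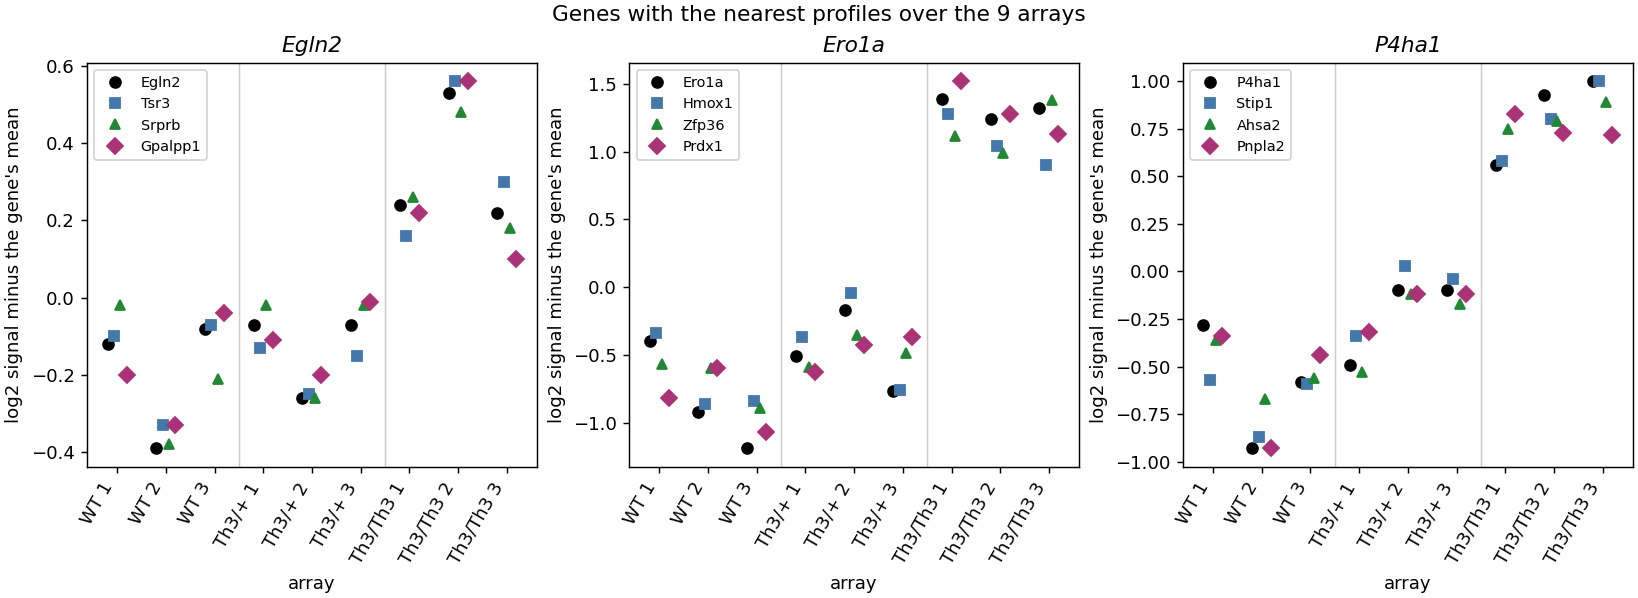
Log2 signal minus each gene's mean over the 9 arrays, for Egln2, Ero1a and P4ha1 (black) and the 3 genes nearest to each (coloured), with 1 column per array and lines between genotypes. In the Egln2 panel all 4 genes are lowest on wild type replicate 2 and highest on Th3/Th3 replicate 2.

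The labelled cell type was checked on its markers. Of the 7 erythroblast markers measured, all passed the filter on dim values. Their summed linear signal was lower in Th3/Th3 (12200 to 15100) than in wild type (22900 to 26300) and Th3/+ (22800 to 23800), and 5 of 7 fell, among them Epb42 by 1.11 and Slc4a1 by 0.83, while 4.98% of all probe sets were lower. The 10 macrophage markers summed to 335 to 472 (wild type), 325 to 477 (Th3/+) and 281 to 315 (Th3/Th3), with 1 of the 10 (Mrc1) below the 40th percentile on every array, and 1 of 8 tested fell. The 6 measured megakaryocyte markers summed to 800 to 1120, 874 to 1060 and 621 to 729, and 0 of 6 passed the test. The part of these marker levels in the changes of Ero1a, P4ha1 and Egln2 was not tested, and in sorted bulk samples fewer cells of a type and less RNA per cell cannot be told apart. Sums overlapped between wild type and Th3/Th3 for the markers of hepatoblasts (1420 to 2040 and 1300 to 2130), endothelial cells (174 to 187 and 171 to 185), stroma (241 to 248 and 229 to 246) and granulocytes (331 to 845 and 339 to 514). Endothelial cells are known for strong Epas1 expression. Of their 8 markers, 4 (Cdh5, Kdr, Tek and Emcn) were below the 40th percentile on every array. The other 4 passed the filter, with wild type means of 4.68 (Pecam1), 4.83 (Lyve1), 4.96 (Tie1) and 5.14 (Stab2). Stab2 had a mean of 5.14 and an SD of 0.00 in each genotype, so its passing the filter does not show expression. Epas1 had a wild type mean of 4.93, but such levels do not rank genes against each other. The part of endothelial cells in the Epas1 signal was not tested.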

How the data were processed

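RNA was measured on 9 arrays, from 35 ng of amplified RNA per sample per the labels. The deposited table holds log2 values by their range, made by the authors with MAS5 per the submitters' processing notes. Its version, the background correction and the genome build: not given in the sources used here. Exactly equal values on at least 2 arrays occurred on 60.9% of probe sets outside the control block, so the summary method is not settled. Values were used as deposited. Of 35556 probe sets, 6617 with identifiers below the first annotated one were taken as controls and left out. Of the rest, 21789 have 1 gene symbol in the platform annotation, 1621 have several and 5529 are not listed. All 10 genes matched the RefSeq gene table.

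Probe sets above the 40th percentile on at least 3 arrays were fitted with limma 3.58.1 in R 4.3.3 (1 mean per genotype, all 9 arrays, eBayes with trend), two-sided, with Benjamini-Hochberg adjustment over 17742 probe sets. Genes named from lists are up to 3 per list by smallest adjusted p, or 2 by smallest p where none passed. Further list genes were named after their values were seen, as stated where they appear. Genes with nearest profiles are 3 per called gene. The genes and lists were chosen with earlier results of these data known. On simulated data for Th3/Th3 against wild type over 17742 probe sets, 60.0% of 1.5-fold, 74.0% of 2-fold, 96.0% of 3-fold and 100.0% of 4-fold changes were recovered, with 4 false among 169 calls. The simulated noise was independent between arrays and probe sets, and fewer probe sets were changed than were called in the data. These rates check the code and are not the power or error of the reported tests. Alternatives were the filter, normalization, variance model, arrays in the fit, replicate block, Xist covariate and leaving out arrays. Arrays have no read depth, and their number limits the precision.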

Additional observations from a re-analysis of the deposited data

How the results depend on the processing

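Ero1a and P4ha1 kept their calls in Th3/Th3 against wild type and against Th3/+ under all 19 alternatives, with changes of 1.98 to 2.37 and 1.26 to 1.59 against wild type. Egln2 kept its call in 13 of 19 (adjusted p = 0.023 to 0.0984), so the number of the 10 genes called was 2 or 3. Against Th3/+ that number was 2, and in Th3/+ against wild type it was 0, under all 19. Of the differences of the 9 tested genes that did not pass the test, some changed sign under at least 1 alternative: 7 of 9 in Th3/+ against wild type, 3 of 7 in Th3/Th3 against Th3/+ and 1 of 6 (Ndrg1) in Th3/Th3 against wild type. Of those that passed, 0 did.

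Over all probe sets, 2181 were called in Th3/Th3 against wild type, and 1444 to 2310 with 1 array left out (1444 without wild type replicate 2). In Th3/Th3 against Th3/+ 1290 were called, 585 to 1412 with 1 array left out (585 without Th3/+ replicate 2, 775 without Th3/+ replicate 3) and 798 with only these genotypes. In Th3/+ against wild type 5 were called (645 at an unadjusted p under 0.05), 1 to 12 with 1 array left out, 3 without the replicates 1 of Th3/+ and Th3/Th3, and 0 with only these genotypes.

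Same-numbered arrays of different genotypes had correlations of deviations of 0.13 to 0.36 for replicates 1 and 3, and of -0.13 to 0.07 for replicate 2. Not all were above 0.1, so the main fit did not take the replicate numbers as pairs. That choice does not show that same-numbered arrays were unrelated, and a shared origin was not tested. With the replicate block 2470 probe sets were called between Th3/Th3 and wild type, 1513 between Th3/Th3 and Th3/+ and 6 between Th3/+ and wild type, and among the 10 genes 3, 2 and 0. The alternatives for the pathway lists were added after the data were seen. Over them 12 to 15 of the other HIF targets, 4 or 5 of the regulators and 3 or 4 of the iron and erythropoietin genes were called. Of the genes of disulfide formation, 0 to 5 were called. Of the genes named from lists, Pdia6 kept its call in 9 of 19 alternatives, Pdia4 in 14, Erp29 in 15 and Slc40a1 in 18. Rbx1 and Ep300 were not followed singly over the alternatives.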
